A study of Mus musculus with 144 samples.

Results

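The genes described here are 10 mouse genes that encode selenoproteins, Gpx1, Gpx4, Txnrd1, Txnrd2, Dio1, Selenop, Selenos, Selenok, Selenof and Selenow. They were taken by gene symbol from a deposited table of 51912 genes, and each was followed in every library. The libraries come from livers of male C57BL/6J mice that lived in 12 h of light and 12 h of dark and could always feed. Their ends of messenger RNA were read by QuantSeq, a kit that primes at the poly(A) tail and gives about 1 read per transcript whatever its length. There are 4 series of 36 libraries: total RNA of wild-type mice (WT), total RNA of mice labelled Bmal1-/- (KO), nuclear RNA of wild-type mice (NU) and polysomal RNA of wild-type mice (PO). Each series covers 6 times of day with 6 libraries a time. The times are ZT2, 6, 10, 14, 18 and 22, where ZT is zeitgeber time, the hours since the light came on. Bmal1, whose gene symbol is Arntl, is a core transcription factor of the circadian clock, and the labels give its genotype for the whole animal without naming a Cre driver, a deleted exon or the animals' age. Nuclei were washed in hypotonic buffer and spun through a sucrose cushion, and polysomes were taken from a sucrose gradient of tissue lysed with cycloheximide. The labels do not say whether each library is a separate mouse, or whether the fractions share mice with the total RNA, so p-values measure the spread between these libraries.

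Selenoproteins carry selenocysteine, an amino acid that is inserted at a UGA codon which would otherwise end translation. The insertion needs a hairpin in the 3′ untranslated region of the messenger RNA, a binding protein, a special elongation factor and a dedicated transfer RNA. The liver is a main site of selenium metabolism: it stores selenium as peroxidases, secretes the carrier selenoprotein P into blood and activates thyroid hormone through the deiodinase DIO1.

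Total counts ran from 5316601 to 9831142 per library in wild-type total RNA, from 4379549 to 14281894 in Bmal1-/-, from 1662449 to 6620128 in nuclear RNA and from 2578048 to 13068044 in polysomal RNA. Levels are given in CPM, a gene's counts per 1000000 counts of all genes in a library, and at these depths 3 counts amount to 0.210 to 1.80 CPM. Hepatocyte markers summed to between 14052 and 110267 CPM in single libraries, with none of the 6 markers at 0 throughout a series. The counts of Arntl do not test the knockout, since an end read can lie outside a deleted part. They ran from 5.17 to 18.6 CPM in Bmal1-/- and from 0.251 to 19.3 CPM in wild-type total RNA. In Bmal1-/- 1 of 12126 genes had a rhythm of 24 h, against 18.9% of genes in wild-type total RNA. Some libraries stood apart. Wild-type total RNA at ZT2, replicate 4, had a median rank correlation of 0.897 with its group, where the next lowest of that series had 0.945. Although all mice are labelled male, 4 libraries at ZT22 (WT replicate 5, KO replicate 6, NU replicate 5 and PO replicate 1) held Xist, an RNA of female cells, at 165 to 4363 CPM, against at most 5.67 CPM in the others. Polysomal replicate 1 held the lung airway transcript Scgb1a1 at 29.9 to 654 CPM in its 6 libraries, against at most 0.457 CPM in polysomal replicates 2 to 6, and markers of exocrine pancreas reached 3795 CPM in a polysomal library.

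The levels in wild-type total RNA were widely spread. Selenop, which encodes the secreted selenium carrier, had 2642 CPM ± 516 (SD, n = 36), and Gpx1, the abundant glutathione peroxidase that removes hydrogen peroxide, had 2411 CPM ± 364. Far below came Selenos, a membrane protein of the endoplasmic reticulum, with 182 CPM ± 31.1, and then Dio1 with 88.2 CPM ± 30.9. Txnrd1, the cytosolic thioredoxin reductase, had 84.1 CPM ± 15.8, and Selenok, another membrane protein of the endoplasmic reticulum, had 64.0 CPM ± 13.1. Selenof, which binds a glycoprotein-folding sensor in that compartment, had 37.9 CPM ± 20.8. Gpx4, the peroxidase that repairs lipid peroxides in membranes, had 17.7 CPM ± 5.95, and Selenow, a small protein with a thioredoxin-like fold, had 12.4 CPM ± 3.16. Txnrd2, the mitochondrial thioredoxin reductase, had 0.964 CPM ± 0.402, with 0 to 14 counts in a library. The ranges over libraries of neighbours in this order overlapped, except between Gpx1 and Selenos and between Selenow and Txnrd2. RefSeq lists 8 pseudogenes of Selenok and 2 of Gpx4, so the counts of these genes are uncertain to the extent that reads were shared with the copies.

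**Figure D1:**
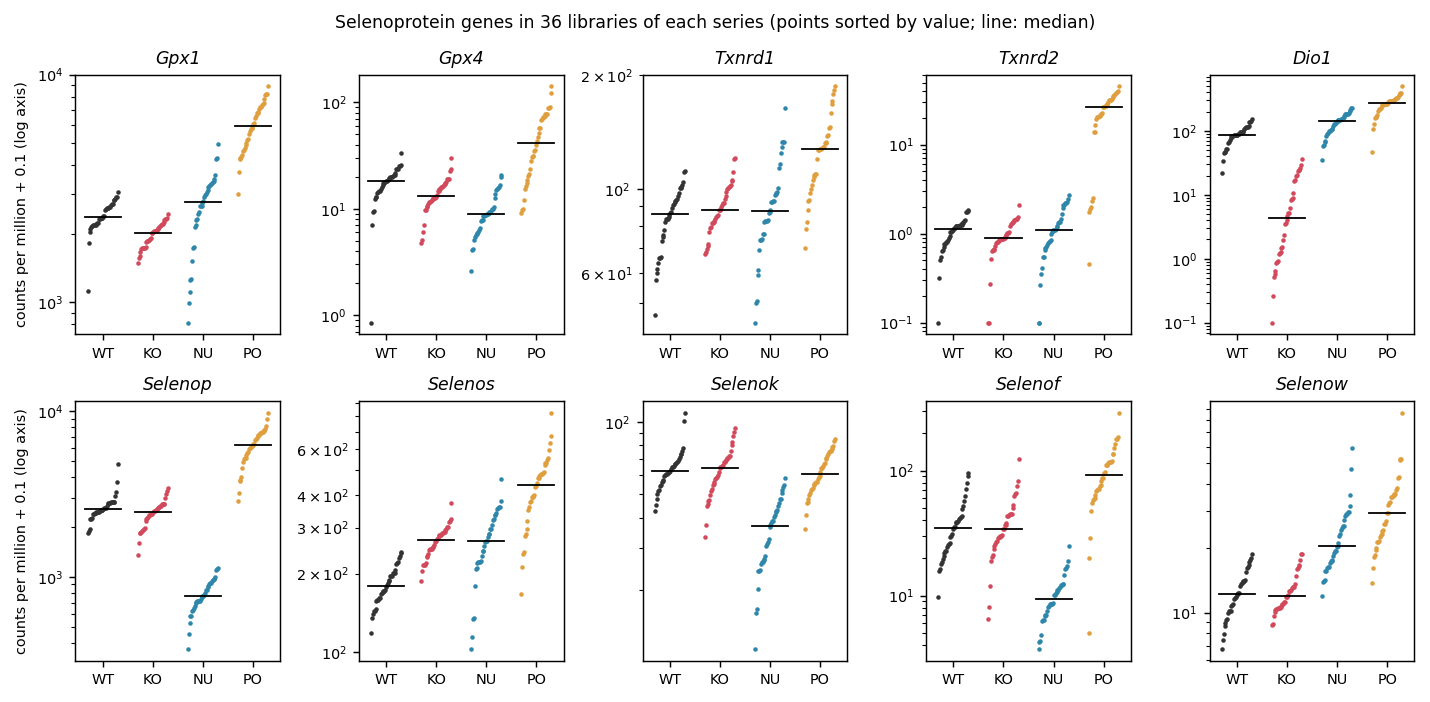
Level of each gene in CPM (log axis, with 0.1 added to every value) in the 36 libraries of wild-type total RNA (WT), Bmal1-/- total RNA (KO), wild-type nuclear RNA (NU) and wild-type polysomal RNA (PO). Points are libraries sorted by value and lines are medians: Dio1 lies lowest in KO, Selenop and Selenof lie lowest in NU, and all genes other than Selenok have their highest median in PO.

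Changes in level were tested with edgeR's quasi-likelihood test over all genes whose counts averaged 10 or more. The p-values were adjusted over all of them by Benjamini-Hochberg, and a gene passed at an adjusted p under 0.05. The log2 changes rest on TMM scaling of the libraries and average over the 6 times, so they can differ a little from ratios of CPM. The 3 comparisons share the wild-type total RNA libraries. In bulk RNA, fewer cells of a type and less RNA per cell cannot be told apart.

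The comparison of Bmal1-/- with wild-type liver asks which of these transcripts differ without a working clock. Dio1 fell 11.3-fold, the peroxidase genes Gpx1 and Gpx4 and the carrier Selenop fell 1.18-fold to 1.35-fold, and Selenos rose 1.37-fold. Of the 9 selenoprotein genes with enough counts, 5 passed the test, 1 higher and 4 lower, while 44.1% of all genes tested passed it (22.4% higher, 21.7% lower). The median log2 change of the 9 genes was -0.12, beside 0.01 over all genes tested. Txnrd2 was not tested, and its level was 0.864 CPM ± 0.411 (SD, n = 36) in Bmal1-/-.

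Dio1 encodes the liver deiodinase that removes an outer-ring iodine from thyroxine to give the active hormone. In wild-type total RNA its lowest, median and highest values were 33.8, 49.8 and 85.9 CPM at ZT2, 66.1, 84.8 and 88.1 CPM at ZT6, and 51.9, 96.6 and 138 CPM at ZT10. They were 21.6, 101 and 155 CPM at ZT14, 87.5, 110.1 and 140.1 CPM at ZT18, and 46.8, 88.5 and 115 CPM at ZT22. The wild-type median was lowest at ZT2, and the range of ZT2 lay below that of ZT18 and overlapped those of the other times. In Bmal1-/- the lowest, median and highest values were 1.12, 3.63 and 24.7 CPM at ZT2, 0.483, 2.12 and 10.5 CPM at ZT6, and 0.160, 1.12 and 26.3 CPM at ZT10. They were 1.39, 5.43 and 20.3 CPM at ZT14, 0, 4.47 and 36.4 CPM at ZT18, and 0.416, 8.53 and 28.8 CPM at ZT22. At each of the 6 times every Bmal1-/- library lay below every wild-type library. A gap of this kind at all 6 times was seen in 0.0497% of all genes tested. Over all times 30 of 36 Bmal1-/- libraries were below the lowest wild-type library. The log2 change was -3.50 (SE 0.33, adjusted p 1.31e-13), from 88.2 CPM ± 30.9 to 8.87 CPM ± 10.2 (SD, n = 36 each).

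The residual Dio1 level varied between the knockout libraries by their replicate number. The means over the 6 times were 17.0, 22.2, 3.40, 7.04, 1.84 and 1.66 CPM for replicates 1 to 6 in order. In wild-type total RNA the same means ran from 61.0 CPM in replicate 4 to 103 CPM in replicate 6. What the replicate numbers stand for is not given. Within replicates 1 to 3 alone the log2 change was -2.86, and within replicates 4 to 6 alone it was -5.17, so the size of the fall differed between these sets while its direction did not. That difference was not tested. Of the 36 knockout libraries, 3 had at most 3 counts of Dio1.

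Dio1 lies on the minus strand of chromosome 4, at chr4:107291465-107307168 in the mouse build GRCm38, and Selenos on the plus strand of chromosome 7, at chr7:66079649-66089405. These genes had the largest fall and the only rise in Bmal1-/-, so their promoters are shown, from 250 bases before the start to 50 after it, 5′ to 3′ on the gene's strand, as RefSeq (GRCm38.p6) gives them. Windows for all 10 genes were matched by symbol and searched on both strands for CACGTG, the E-box that the BMAL1 and CLOCK pair is known to bind. Capitals mark that motif.
Dio1, chr4:107307119-107307418, minus strand: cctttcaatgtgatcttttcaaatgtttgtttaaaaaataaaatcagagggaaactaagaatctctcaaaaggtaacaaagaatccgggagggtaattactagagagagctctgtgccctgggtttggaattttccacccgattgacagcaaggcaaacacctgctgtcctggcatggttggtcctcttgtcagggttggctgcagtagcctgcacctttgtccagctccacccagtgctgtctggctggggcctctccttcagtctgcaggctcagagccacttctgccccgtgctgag
Selenos, chr7:66079399-66079698, plus strand: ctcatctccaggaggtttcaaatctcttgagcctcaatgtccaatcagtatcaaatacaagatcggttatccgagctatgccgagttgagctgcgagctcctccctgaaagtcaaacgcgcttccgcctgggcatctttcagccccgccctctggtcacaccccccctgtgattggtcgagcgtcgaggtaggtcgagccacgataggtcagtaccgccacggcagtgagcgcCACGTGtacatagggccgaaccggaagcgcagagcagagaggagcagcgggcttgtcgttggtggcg
The Selenos window held CACGTG once, from 17 to 12 bases before the start. The other 9 genes had none in their windows, and 7.15% of 32851 RefSeq promoter windows of the same length hold it. These are matches of letters and not measured binding.

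**Figure D2:**
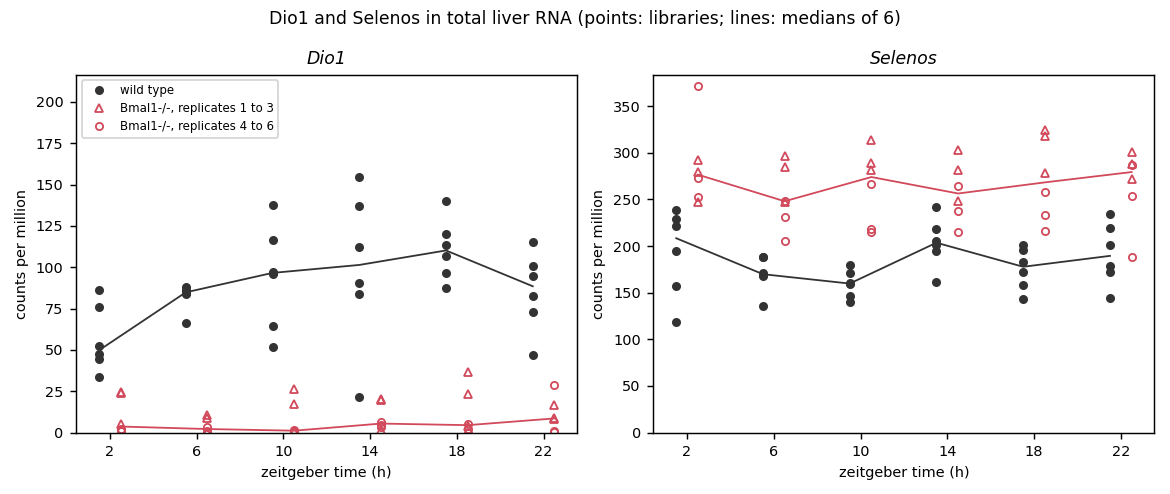
Dio1 (left) and Selenos (right) in total liver RNA in CPM against zeitgeber time in hours, with wild type in black and Bmal1-/- in red (triangles for replicates 1 to 3, circles for replicates 4 to 6); points are single libraries and lines are medians of 6. Every Bmal1-/- library lies below every wild-type library for Dio1 at all 6 times, and for Selenos every Bmal1-/- library lies above every wild-type library at 4 of 6 times.

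Selenos encodes a protein of the complex that pulls misfolded proteins out of the endoplasmic reticulum. In wild-type total RNA its lowest, median and highest values were 119, 208 and 239 CPM at ZT2, 135, 170 and 189 CPM at ZT6, and 140.1, 160 and 180.04 CPM at ZT10. They were 161, 204 and 241 CPM at ZT14, 143.6, 178 and 201 CPM at ZT18, and 144.04, 189 and 234 CPM at ZT22. These wild-type groups overlapped one another. In Bmal1-/- the values were 247, 277 and 371 CPM at ZT2, 205, 248 and 297 CPM at ZT6, and 215, 274 and 314 CPM at ZT10. They were 215, 256 and 302 CPM at ZT14, 216, 268 and 324 CPM at ZT18, and 188, 279 and 300.4 CPM at ZT22. The 2 genotypes did not overlap at ZT2, 6, 10 and 18 and overlapped at ZT14 and ZT22. Such a gap at 4 or more times was seen in 1.04% of all genes tested. The log2 change was 0.46 (SE 0.05, adjusted p 6.63e-11), from 182 CPM ± 31.1 to 266 CPM ± 38.1, and 27 of 36 Bmal1-/- libraries were above the highest wild-type library.

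Both glutathione peroxidase genes among the 10 were lower in Bmal1-/-, while Gpx3, which is not among the 10, was higher (0.86). Gpx1 had a lowest, median and highest value of 1122, 2368 and 3058 CPM over the 36 wild-type libraries and 1489, 2019 and 2437 CPM in Bmal1-/-. The ranges overlapped, the Bmal1-/- mean was lower at 6 of 6 times, and the log2 change was -0.38 (SE 0.06, adjusted p 7.70e-08). Gpx4 had 0.752, 18.2 and 32.9 CPM in the wild type and 4.64, 13.1 and 29.7 CPM in Bmal1-/-, with a log2 change of -0.44 (SE 0.14, adjusted p 0.00747). The lowest wild-type values of both genes belong to replicate 4 at ZT2, and 5 genes were again called, 4 of them lower, without that library. The Gpx4 call was lost in a fit of all 4 series together (adjusted p 0.0671), within replicates 1 to 3 alone (adjusted p 0.246) and at light-phase times alone (adjusted p 0.309). Selenop had 1834, 2552 and 4817 CPM in the wild type and 1347, 2456 and 3448 CPM in Bmal1-/-. Its ranges overlapped almost wholly, and the log2 change of -0.23 (SE 0.07, adjusted p 0.00428) was not past the threshold within replicates 4 to 6 alone (adjusted p 0.123) or in either phase of the day alone.

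The remaining genes did not pass the test in Bmal1-/-, which does not show that they are equal. Txnrd1 had a log2 change of 0.00 with a 95% interval from -0.12 to 0.12, the narrowest interval of these 4 genes. For Selenok the interval ran from -0.26 to 0.02, for Selenow from -0.24 to 0.07 and for Selenof from -0.42 to 0.33. The wide interval of Selenof goes with its spread, since single Bmal1-/- libraries ran from 6.36 to 124 CPM. Selenof was at least 50.002 CPM in all 6 libraries of knockout replicate 2, where the other knockout replicate numbers had medians from 27.6 to 40.2 CPM. The ranges overlapped, since the highest library of knockout replicates 4 to 6 had 65.7 CPM. Within replicates 4 to 6 alone Selenok, Selenow and Selenof were called lower, and within replicates 1 to 3 alone their log2 changes were above 0 and not called.

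Median marker sums also differed between the genotypes for several cell types. Hepatocyte markers had a median sum of 67667 CPM in wild-type total RNA (28941 to 88609 CPM). In Bmal1-/- it was 52927 CPM (25433 to 110267 CPM), so these ranges overlapped. Stellate cell markers had medians of 245 CPM in the wild type and 296 CPM in Bmal1-/-, Kupffer cell markers 257 and 223 CPM, and endothelial markers 186 and 189 CPM. The 4 cholangiocyte markers summed to 9.90 to 53.0 CPM (median 19.0) in wild-type total RNA and to 33.3 to 117 CPM (median 58.2) in Bmal1-/-, with none of the 4 at 0 throughout. Globin transcripts summed to a median of 2504 CPM in the wild type and 1427 CPM in Bmal1-/-. The part of these cell types in the changes of the selenoprotein genes was not tested.

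**Figure D3:**
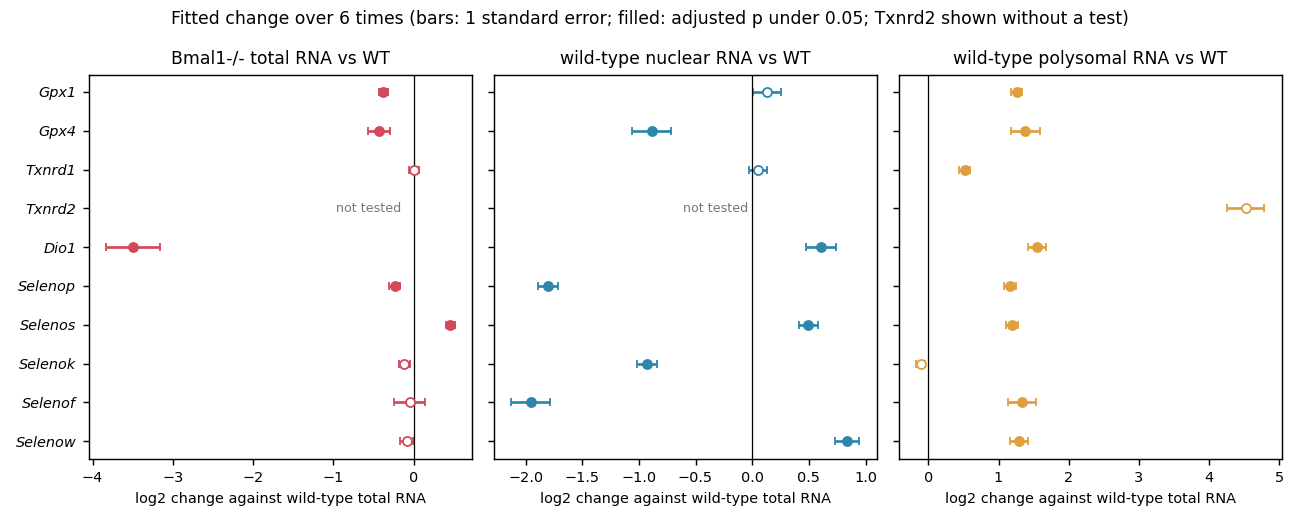
Fitted log2 change of each gene against wild-type total RNA in Bmal1-/- total RNA (left), nuclear RNA (middle) and polysomal RNA (right), over 6 times and 36 libraries a series; bars are 1 standard error, filled points have an adjusted p under 0.05, Txnrd2 is drawn open as a value without a test, and the scales of the panels differ. Dio1 stands out at -3.50 in Bmal1-/-, nuclear changes lie on both sides of 0, and, Txnrd2 left out, 8 of 9 polysomal changes lie above 0.

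Nuclear RNA was compared with total RNA to see how much of each transcript is found in the nucleus. Of the 9 genes tested 7 passed, 3 higher and 4 lower in the nucleus, and 83.8% of all genes tested passed (41.6% higher, 42.1% lower). The count of genes passing was thus close to that of genes at large, and the directions were mixed. The fractions have different totals of RNA, so each log2 change is a share relative to the other transcripts of that fraction. The median of the 9 genes was 0.05, beside -0.01 over all genes tested.

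The secreted carrier and the luminal protein had the largest falls from total to nuclear RNA among the 9 genes tested. Selenop had a lowest, median and highest value of 368, 766 and 1125 CPM over the 36 nuclear libraries, all below the lowest wild-type total library at 1834 CPM. Its log2 change was -1.80 (SE 0.09, adjusted p 8.30e-31), and a gap at all 6 times in this direction was seen in 7.22% of genes tested. Selenof had 3.64, 9.33 and 25.1 CPM in nuclei against 9.67, 34.6 and 95.9 CPM in total RNA, with a log2 change of -1.96 (SE 0.17, adjusted p 1.24e-16). Its ranges overlapped, and 18 of 36 nuclear libraries were below all total libraries. Selenok fell by 0.93 on the log2 scale (SE 0.09, adjusted p 8.38e-16), with 26 of 36 nuclear libraries below all total libraries. Gpx4 fell by 0.89 (SE 0.17, adjusted p 5.06e-06), with no library outside the range of total RNA. Its call was lost within replicates 1 to 3 alone (adjusted p 0.108).

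Selenow, Dio1 and Selenos were higher in nuclei. Selenow had 11.8, 20.3 and 59.0 CPM against 6.66, 12.1 and 18.8 CPM, a log2 change of 0.84 (SE 0.11, adjusted p 9.85e-11), and 22 of 36 nuclear libraries were above all total libraries. Dio1 had 34.4, 143 and 229 CPM against 21.6, 86.8 and 155 CPM, a log2 change of 0.61 (SE 0.14, adjusted p 4.85e-05). Selenos had 103, 266 and 461 CPM against 119, 179 and 241 CPM, a log2 change of 0.50 (SE 0.09, adjusted p 3.06e-07). For all 3 genes the ranges overlapped and the nuclear mean was higher at 6 of 6 times.

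Txnrd1 and Gpx1 did not pass in nuclei. Txnrd1 had a log2 change of 0.05 with an interval from -0.10 to 0.21. Gpx1 had 0.13 (adjusted p 0.306), and its nuclear libraries spread from 812 to 4974 CPM, wider than in total RNA. The lowest nuclear values of Gpx1 came from replicate 4, with a median of 1185 CPM over the 6 times, while the medians of the other numbers ran from 2524 to 3286 CPM. Without nuclear replicate 4, left out after these values were seen, Gpx1 was called higher (0.29, adjusted p 0.00749). Leaving out the lowest values raises the change by itself, so this call does not test a rise. Gpx1 was called higher within replicates 1 to 3 alone (0.50, adjusted p 0.00225) and was -0.27 and not called within replicates 4 to 6. Stellate cell markers summed to a median of 119 CPM in nuclei and 245 CPM in total RNA, and the nuclear RNAs Neat1 and Malat1 to 2726 and 1964 CPM. The part of these differences in the results was not tested.

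Polysomal RNA was compared with total RNA to see which transcripts are found on several ribosomes at once. Txnrd2 passed the filter on low counts only through the polysomal libraries and is described apart, with no test. Of the other 9 genes 8 were higher in polysomes and 0 lower with edgeR, where 76% of all genes tested passed (38.8% higher, 37.2% lower). The median log2 change of the 9 genes was 1.26, beside 0.02 over all genes tested. Without the libraries of polysomal replicate 1, 8 were higher and 0 lower. Within replicates 4 to 6 alone, which hold neither those libraries nor the ones with high pancreas markers, 8 were higher and Selenok was lower.

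Both peroxidase genes and the carrier gene rose. Gpx1 had a lowest, median and highest value of 2988, 5962 and 8878 CPM in polysomes against 1122, 2368 and 3058 CPM in total RNA. All polysomal libraries lay above all total libraries at each of the 6 times, a gap seen in 3.86% of genes tested, and the log2 change was 1.26 (SE 0.08, adjusted p 1.07e-23). Selenop had 2868, 6233 and 9773 CPM and a log2 change of 1.16 (SE 0.08, adjusted p 7.52e-21). It lay above all total libraries at 5 of 6 times. Gpx4 had 8.97, 41.6 and 141 CPM and a log2 change of 1.38 (SE 0.20, adjusted p 1.50e-08), and its ranges overlapped at every time. Its polysomal level differed by replicate number, with medians over the 6 times of 17.8 and 15.5 CPM in replicates 2 and 3 and of 50.2 to 77.9 CPM in the others. In total RNA the medians of the 6 numbers ran from 14.4 to 19.5 CPM, so polysomal replicates 2 and 3 lay within that range or close to it.

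Dio1, Selenos, Selenof, Selenow and Txnrd1 rose as well, and Selenok did not pass the test. Dio1 had 46.2, 270 and 497 CPM in polysomes, a log2 change of 1.55 (SE 0.13, adjusted p 8.37e-18), and 33 of 36 polysomal libraries were above all total libraries. Selenos had 166, 438 and 827 CPM, a change of 1.19 (SE 0.09, adjusted p 6.16e-20). Selenof had 4.93, 91.9 and 291 CPM, a change of 1.34 (SE 0.20, adjusted p 1.07e-08). By its change from total RNA, Selenof was among the lowest of these genes in nuclei and among the higher in polysomes. Selenow had 13.7, 29.2 and 86.4 CPM, a change of 1.29 (SE 0.12, adjusted p 2.98e-15), with its highest library in replicate 1. Without that replicate its change was 1.12, and it was 1.80 within replicates 1 to 3 alone and 0.70 within replicates 4 to 6 alone. Txnrd1 rose least among the genes called, by 0.52 on the log2 scale (SE 0.08, adjusted p 2.98e-08), from a median of 85.7 to 127 CPM. Selenok, with a median of 62.2 CPM in total and 60.6 CPM in polysomal RNA, did not pass (-0.11, SE 0.06, adjusted p 0.0988). It was called lower within replicates 4 to 6, with a count filter of 1 (-0.16, adjusted p 0.0246), by DESeq2 (-0.21, adjusted p 0.00143) and by edgeR with median-ratio size factors (-0.21, adjusted p 0.00204). Both of the last settings lower the median of all genes from 0.02 to -0.07.

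Txnrd2 was too low for a test in the other comparisons. It had a lowest, median and highest value of 0, 1.03 and 1.74 CPM in total RNA and 0.352, 26.3 and 45.2 CPM in polysomes. Polysomal replicate 1 had 0.352 to 2.44 CPM, within or near the range of total RNA, and polysomal replicates 2 to 6 had 13.9 to 45.2 CPM. As a description the fitted log2 change was 4.52, and 4.79 without replicate 1. In nuclei the range was 0 to 2.61 CPM, and in Bmal1-/- it was 0 to 2.01 CPM. No site of the authors' filtered list of transcript ends falls in Txnrd2, so the place of these polysomal reads in the gene is not known, and whether counting used the strand is not given. Among the 24 group means the genes most like Txnrd2 were Myadm and Coro1b (Pearson's r of 0.994 and 0.992).

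**Figure D4:**
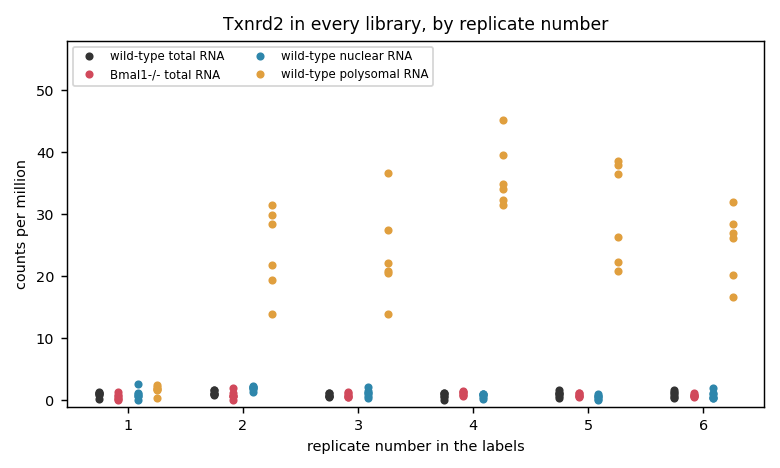
Txnrd2 in CPM in every library, by the replicate number in the labels, with 6 libraries (1 for each time) per number and series. Polysomal replicates 2 to 6 lie between 13.9 and 45.2, and polysomal replicate 1 and all libraries of the other series lie at or below 2.61.

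Globin transcripts had a higher median sum in polysomal RNA than in total RNA, with overlapping ranges. The 4 globin transcripts summed to 2113 to 20686 CPM in polysomes (median 8749) and to 527 to 13013 CPM in total RNA (median 2504), and the nuclear RNAs Neat1 and Malat1 to 25.02 to 143.97 CPM against 508 to 2999 CPM. The part of blood cells in the polysomal rise of Gpx1, Gpx4 and Selenow was not tested. Hepatocyte markers summed to a median of 34292 CPM in polysomes and 67667 CPM in total RNA, so the rise of these genes was not shared by the hepatocyte markers as a sum.

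Rhythm over 24 h was tested in each series by a cosine and sine of time. None of the genes passed with edgeR: 0 of 9 in wild-type total RNA, where 18.9% of all genes tested did, 0 of 9 in Bmal1-/- (0.00825%), 0 of 9 in nuclear RNA (5.99%) and 0 of 10 in polysomal RNA (7.9%). On simulated counts the test found 0% of rhythms with a peak-to-trough ratio of 1.25, 36.5% at 1.5 and 80.5% at 2, so low rhythms would be missed. At an unadjusted p under 0.05 there were 2 genes in wild-type total RNA, Dio1 and Selenok, and 0 in each of the other series. DESeq2 called 1 gene in wild-type total RNA and 0 in each of the others. Dio1 had a fitted ratio of 1.68 with a peak at ZT15.3 (p 0.0150, adjusted p 0.0700), and it is the gene that DESeq2 called (adjusted p 0.0385). Its mean was lowest at ZT2, 56.6 CPM ± 20.01 (SD, n = 6), and highest at ZT18, 111 CPM ± 18.6. In nuclear RNA the means of Dio1 were lowest at ZT6, 94.8 CPM ± 31.5, and highest at ZT18, 160 CPM ± 37.0. In polysomal RNA they ran from 242 CPM ± 53.2 at ZT6 to 311 CPM ± 116 at ZT18. The 6 values of neighbouring times overlapped in each series. Selenok had a ratio of 1.29 with a peak at ZT1.04 (p 0.0292, adjusted p 0.110). The other 7 genes had fitted ratios from 1.09 for Selenop to 1.46 for Selenof in wild-type total RNA. A different rhythm from wild-type total RNA was found in 0 of 9 genes for Bmal1-/- (5.18% of all genes tested), 0 of 9 for nuclear RNA (0%) and 0 of 10 for polysomal RNA (0%), with 0 in each at an unadjusted p under 0.05 and 0 by DESeq2. The polysomal count includes Txnrd2. With 0 to 14 counts of it in a wild-type total library, this comparison could not show a difference for that gene. On simulated counts 54.5% of rhythm differences at a ratio of 2 and 5% at a ratio of 1.5 were found for Bmal1-/-.

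The deposited site list shows where the transcripts of these genes end. Gpx1, Selenow and Dio1 have 1 listed site each, within 18 bases of the annotated gene end, and Selenop has a main site with 99.8% of its counts. Gpx4, Selenos, Selenok, Selenof and Txnrd1 have 3 to 5 sites, numbered here from 5′ to 3′. For Txnrd1 the last site, at chr10:82897556-82897715, lies at the annotated gene end and held 38.5% ± 8.37 (SD, n = 36) of the site counts in wild-type total RNA. The other 4 Txnrd1 sites lie 13163 to 18379 bases before that end, and site 1 (23.9%) and site 4 (25.3%) were the largest of them. Exon and intron structure was not used here, and reads primed at internal stretches of A cannot be told apart from true ends.

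With Bmal1 deleted, 0 of 15 tested sites of these genes passed edgeR's test of share against the wild type, against 8.57% of all sites tested. The largest log2 change in share by size was that of Selenof site 1 (-0.52, SE 0.35, adjusted p 0.423), with 4.52% in the wild type and 3.29% in Bmal1-/-. So the fall of Gpx4 and the rise of Selenos had no detected shift among their ends. At an unadjusted p under 0.05 there was 1 of these sites, Txnrd1 site 2, with 8.43% in the wild type and 7.25% in Bmal1-/-. In wild-type total RNA 0 of 16 sites had a rhythm in share with edgeR, and 0 had an unadjusted p under 0.05, against 0.355% of all sites called.

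Nuclear RNA had other shares of ends. Of 15 sites tested 13 differed from total RNA, against 78.8% of all sites. The last Txnrd1 site held 16.1% ± 5.71 (SD, n = 36) in nuclei and 38.5% ± 8.37 in total RNA (log2 change -1.27, SE 0.10, adjusted p 5.43e-18). Instead site 2, at chr10:82879756-82879776, held 18.1% against 8.43% (1.10, SE 0.10, adjusted p 7.71e-15), and site 4 held 33.6% against 25.3%. Selenok site 3, at chr14:29974798-29974848, held 29.8% ± 14.6 in nuclei and 14.4% ± 4.28 in total RNA (0.999, SE 0.13, adjusted p 1.21e-10), and its sites 1, 2 and 4 were lower. For Selenos and Gpx4 the shift ran to the 3′ side: Selenos site 4 held 80.6% against 70.7%, and Gpx4 site 4 held 65.9% against 52.8%. Selenof site 2 fell from 92.6% to 81.3%. Within replicates 4 to 6 alone 8 of these 15 sites passed, and neither Selenos site was among them.

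Polysomal RNA differed from total RNA at 10 of 17 sites, against 70.4% of all sites. Txnrd1 site 2 held 20.6% ± 4.55 in polysomes and 8.43% ± 2.55 in total RNA (1.29, SE 0.09, adjusted p 4.42e-19), and site 1 held 16.2% against 23.9% (-0.57, SE 0.11, adjusted p 3.25e-06). The last Txnrd1 site did not pass, with 33.9% in polysomes (adjusted p 0.0855). Thus site 2 was higher in both fractions, while the last site was lower in nuclei by a wide margin. Selenok site 3 held 21.5% in polysomes, between its nuclear and total shares. Selenos site 2, at chr7:66083410-66083511, held 26.1% in polysomes, 21.1% in total RNA and 13.9% in nuclei, in the order opposite to its site 4. Gpx4 site 3 held 23.5% against 30.9%, and the small Gpx4 site 1 held 6.97% against 4.33%. Within replicates 1 to 3 alone 5 of the sites passed. The fractions share the total RNA libraries as their reference.

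**Figure D5:**
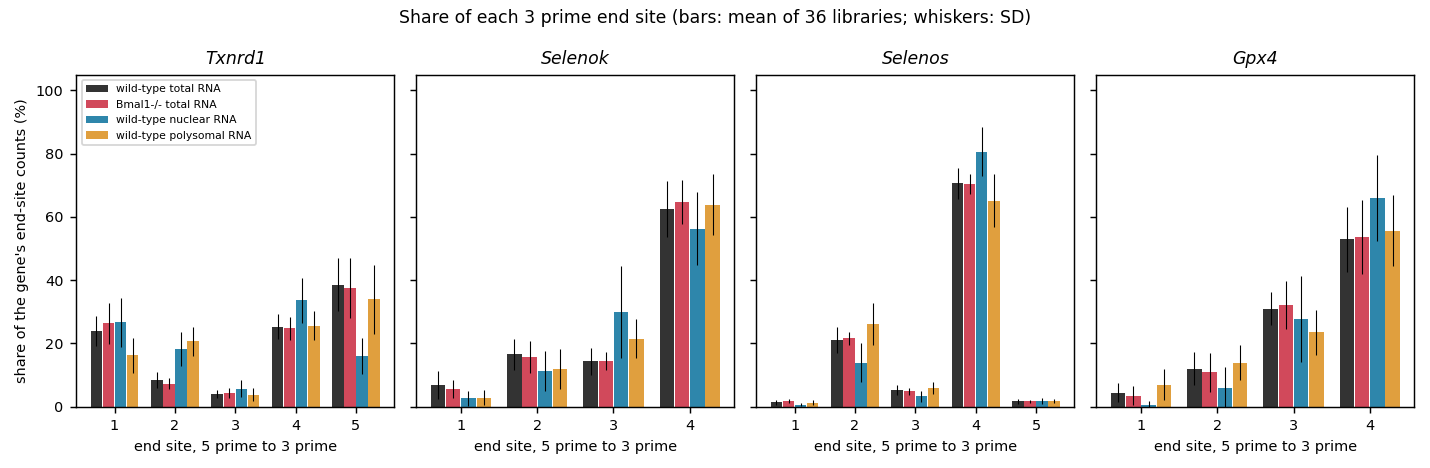
Share of each transcript end site in the gene's site counts (percent) for Txnrd1, Selenok, Selenos and Gpx4, with sites numbered from 5′ to 3′; bars are means of 36 libraries and whiskers are SD. The last Txnrd1 site drops to 16.1% in nuclear RNA, and Selenok site 3 rises to 29.8% there.

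Other genes of the pathway were taken from lists of names. Of 8 other selenoprotein genes tested in Bmal1-/-, 3 were higher and 2 lower, with a median log2 change of 0.04, where 44.1% of all genes passed. The higher ones were Gpx3, the plasma peroxidase (0.86, adjusted p 8.35e-06), Selenoi, an enzyme of phospholipid synthesis (0.50), and Selenoh, a nuclear redox protein (0.33). In nuclei 8 of 9 passed (83.8% of all genes), 4 in each direction, led by Gpx3 (2.36) and Selenoo (1.94). These counts include Selenom (1.78), with a mean of 3.79 CPM ± 1.77 (SD) in nuclei and 1.05 CPM ± 0.496 in total RNA. At this level a gene can pass the count filter mainly through the series where it is higher. The rise of Selenom is therefore uncertain. In polysomes 6 of 8 passed (76% of all genes), 5 higher and 1 lower, among them Sephs2, which makes the activated selenium donor (1.20), and Msrb1, a methionine sulfoxide reductase (0.97). In wild-type total RNA 4 of 8 were rhythmic, where 18.9% of all genes were, among them Selenoi (ratio 1.64, peak at ZT23.2, adjusted p 0.00888), Txnrd3 (1.57, ZT8.52, adjusted p 0.000713) and Selenoo (1.39, ZT9.55, adjusted p 0.0192).

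Genes for selenocysteine insertion and recycling had few changes in Bmal1-/-. Of 9 tested 1 was higher and 1 lower (44.1% of all genes passed), by less than 0.20 on the log2 scale each (Trnau1ap 0.19 and Secisbp2l -0.18). In polysomes 8 of 9 passed, 6 of them lower, with a median log2 change of -0.45, where 76% of all genes passed and 37.2% were lower. In nuclei 6 of 9 passed, 4 of them lower, against 83.8% and 42.1% of all genes. Sepsecs, which makes selenocysteine on its transfer RNA, was -1.03 in polysomes and -1.41 in nuclei. None of the 9 was rhythmic in wild-type total RNA. Whether these genes differ from the selenoprotein genes in polysomal change was not tested.

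Of 15 partners in thioredoxin, glutathione and peroxide chemistry, 8 passed in Bmal1-/-, 2 higher and 6 lower, where 44.1% of all genes passed and 21.7% were lower. Prdx2, a peroxiredoxin abundant in red blood cells, fell by 0.83 (adjusted p 6.36e-13), Glrx by 0.56 and the peroxide-degrading enzyme Cat by 0.52. In polysomes 11 were higher and 3 lower, led by the glutathione reductase Gsr (1.43), where 38.8% of all genes were higher. In nuclei 2 were higher and 11 lower, where 42.1% of all genes were lower. Of 8 endoplasmic reticulum partners of Selenos, Selenok and Selenof tested in Bmal1-/-, 3 were lower and 0 higher, where 44.1% of all genes passed and 21.7% were lower. The lower ones were Derl2 (-0.31), Derl1 (-0.18) and Sel1l (-0.17). These are members of the same degradation machinery as Selenos, which rose.

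NRF2 is the factor that induces Txnrd1 and other antioxidant genes. Of 8 of its targets tested in Bmal1-/-, 3 were lower and 0 higher, where 44.1% of all genes passed and 21.7% were lower. They were G6pdx (-0.77), Pgd (-0.41) and Taldo1 (-0.28), which encode enzymes of the pentose phosphate pathway. G6pdx was low, with a mean of 1.02 CPM ± 0.626 (SD) in Bmal1-/- and 1.66 CPM ± 0.913 in the wild type. At this level a gene can pass the count filter mainly through the series where it is higher. The fall of G6pdx, counted among the 3, is therefore uncertain. Gclc, which makes the first step of glutathione synthesis, was rhythmic in wild-type total RNA (ratio 2.15, peak at ZT1.31, adjusted p 1.05e-06), and its rhythm differed in Bmal1-/- (adjusted p 0.00958). Of 7 thyroid hormone genes tested beside Dio1, 3 were higher and 2 lower in Bmal1-/-, where 22.4% of all genes were higher and 21.7% lower. Thrsp, a hormone-responsive gene of fat synthesis, fell by 2.73 (SE 0.27, adjusted p 6.27e-13), and Me1, the malic enzyme, fell by 1.49 (adjusted p 1.03e-10). Thra, a receptor for the hormone, rose by 0.78 (adjusted p 1.94e-18). Thrsp was rhythmic in wild-type total RNA (ratio 5.37, peak at ZT14.5, adjusted p 0.00380) and its rhythm differed in Bmal1-/- (adjusted p 0.0337). For Dio1, with a fitted ratio of 1.68 and no call in the wild type, no difference was found (adjusted p 0.779). On simulated counts 5% of differences at a ratio of 1.5 and 54.5% at 2 were found. The result for Dio1 therefore does not set it apart from Thrsp.

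Likeness of pattern was described by Pearson's r over the 24 group means of log2(CPM + 1), which share libraries, depth and fractions, so no test was made. The gene most like Gpx1 was Mif (0.991) and the gene most like Selenop was Ndufb6 (0.993), while Dio1 was most like Zap70 (0.990). For Gpx4 it was Cox8a (0.966), for Selenof Ndufa1 (0.989), for Selenos Ssr1 (0.935) and for Selenok Psmc6 (0.969). Selenow was closest to Asna1 (0.986) and Txnrd1 to Rab14 (0.957). Among the 10 genes the closest pair was Selenop and Selenof (0.988), both lower in nuclei and higher in polysomes than in total RNA. The least alike were Selenow and Selenok (-0.32).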

How the data were processed

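QuantSeq libraries were made from 2 µg of RNA, per the labels' protocols. The authors deposited raw counts per gene symbol (51912 genes) and per transcript end site (86780 sites), with 1 column per library. STAR 2.4.2a, edgeR, HOMER and the builds mm10 and GRCm38.p5 are named in the submitters' processing notes without a role or order. The counting tool, the use of strand and the annotation are not given in the sources used here. Normalized tables were also deposited and were not used.

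The sample titles gave each library's group and replicate number, and 0 columns lacked a sample. Of 360 pairs of libraries within a group 0 were identical. CPM was computed from the gene counts. Tests used R 4.3.3 and edgeR 4.0.16 (robust quasi-likelihood F tests, TMM, Benjamini-Hochberg adjustment, threshold 0.05) on genes averaging 10 or more counts over the libraries of a fit. Level was compared over 12 groups of series and time, averaged over 6 times, and rhythm as a cosine and sine of 24 h within a series or in interaction with it. Sites of the authors' filtered list of 29199 were given to RefSeq genes (GRCm38.p6) by strand, up to 1000 bp past the gene end. Of these 22426 were given to 1 gene, 6576 lay in no gene with a listed strand, 197 lay in several genes, and 1186 were dropped where the sites of a gene summed to a total far from its gene count. The build was checked by the distance to gene ends, which was at most 25 bp for 21.9% of the sites. A site's share was tested with the logarithm of the gene's site total plus 0.5 as offset, for sites that held 5% or more of their gene's counts, where the gene had 2 or more of them and averaged 50 counts or more. Promoter windows came from RefSeq. The fits were tested on simulated counts. With a 1.25-fold change between Bmal1-/- and the wild type 48.5% of changed genes among 12082 were found, with 1.5-fold 88% and with 2-fold 99.5%. For a share that moved from 50% to 60% the value was 99% over 8161 genes. This simulation used a fixed spread of shares between libraries that was not taken from the data. Gpx4 site 4 held 52.8% ± 10.2 (SD) in wild-type total RNA, so the 99% need not hold for sites of the selenoprotein genes.

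The 10 genes, the pathway lists and the marker lists were chosen with earlier results of these data known. The rule for names was all 10 genes, at most the 3 called genes of largest change per list and comparison, and the closest genes by correlation. Alternatives were DESeq2 1.42.0, median-ratio scaling, a lower count filter, all series in 1 fit, sets of replicates or times, a replicate block, and, chosen after seeing the data, leaving out libraries that stood apart.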

Additional observations from a re-analysis of the deposited data

Results flagged for a closer look

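In 18 of the 240 groups of 6 libraries (10 genes, 24 groups), the highest or lowest library lay apart from the rest by Dixon's test at 95%, a rule that chance meets in about 5% of groups. For Dio1 these were low values in polysomal RNA at ZT2 (162 CPM, replicate 5) and ZT22 (109 CPM, replicate 1) and in wild-type total RNA at ZT6 (66.1 CPM, replicate 4). Gpx1 was low in Bmal1-/- at ZT2 (1489 CPM, replicate 6) and in polysomal RNA at ZT22 (4421 CPM, replicate 6). Gpx4 was high in nuclear RNA at ZT2 (19.8 CPM, replicate 3) and ZT18 (16.1 CPM, replicate 2).

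Selenof was high in Bmal1-/- replicate 2 at ZT10 (50.002 CPM) and ZT22 (124 CPM), in nuclear replicate 4 at ZT14 (25.1 CPM) and in polysomal replicate 6 at ZT10 (178 CPM). Selenop was high in wild-type total RNA at ZT2 (4817 CPM, replicate 4), in the library whose counts differed most from the other wild-type total RNA libraries, and Selenos was high in Bmal1-/- at ZT2 (371 CPM, replicate 4). Selenow was high in nuclear RNA at ZT22 (46.8 CPM, replicate 5) and in polysomal RNA at ZT18 (86.4 CPM, replicate 1). That nuclear library is the nuclear library named above for Xist. That polysomal library is among the 6 named above for the lung transcript Scgb1a1. Txnrd1 was high in nuclear RNA at ZT18 (129 CPM, replicate 4) and in polysomal RNA at ZT10 (178 CPM, replicate 2). Txnrd2 was high in nuclear RNA at ZT10 (2.61 CPM, replicate 1).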

How the results depend on the processing

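For Bmal1-/- against the wild type the count of genes called in level was 5 and stayed from 4 to 7 under the alternatives, except for 3 at light-phase times alone. It was 7 to 8 for nuclear RNA and, without Txnrd2, 8 to 9 for polysomal RNA. No log2 change that turned sign was called in the alternative that turned it. For Bmal1-/- these were Txnrd1 with DESeq2 (-0.0042), at dark-phase times (-0.015), with a mean of at least 1 count (-0.0015), with median-ratio scaling (-0.0034) and in replicates 1 to 3 (-0.020), Selenof at dark-phase times (0.087), in replicates 1 to 3 (0.48) and without wild-type ZT2 replicate 4 (0.014), Selenow at light-phase times (0.030) and in replicates 1 to 3 (0.089), and Selenok in replicates 1 to 3 (0.064). For nuclear RNA they were Txnrd1 with a mean of at least 1 count (-0.060) and without nuclear replicate 4 (-0.052; without wild-type ZT2 replicate 4 it was 0.10), and Gpx1 in replicates 4 to 6 (-0.27). In replicates 1 to 3 the polysomal site shares of Gpx4 site 2 (-0.051), Txnrd1 site 4 (-0.00095) and Selenok site 4 (-0.13) turned.

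The sites called were 1 in replicates 1 to 3 and 2 in replicates 4 to 6 for Bmal1-/- (0 in all libraries), 8 in replicates 4 to 6 for nuclear RNA and 5 in replicates 1 to 3 for polysomal RNA. Rhythm in wild-type total RNA was called for 1 gene, Dio1, with DESeq2 and in replicates 1 to 3. These sets hold fewer libraries, and the cause was not tested.

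With the replicate number as a block, 5, 7 and 8 genes (Txnrd2 left out) were called in level for Bmal1-/-, nuclear and polysomal RNA, and 0 in each test of rhythm. The block called 0, 13 and 10 sites. Same-numbered libraries of nuclear and total RNA at a time deviated together with a mean correlation of 0.295 (0.00145 to 0.662), over 0.1 in 34 of 36 pairs, and the mean with other numbers was -0.0585. This is a hint from the data that nuclear and total libraries go together by number, and since not every pair was over 0.1 and the labels do not tie the numbers to mice, they were not taken as pairs. For polysomal RNA 0 of 36 pairs were over 0.1 and for Bmal1-/- 15 of 36. Of 36 pairs of the same number 29 correlated best with their own number for nuclear RNA, 14 for Bmal1-/- and 0 for polysomal RNA.

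Over all features the alternatives moved the calls from 5328 to between 3737 and 6442 genes for Bmal1-/- level, from 626 to 186 and 851 for its rhythm difference, from 1 to 0 and 10 for its rhythm, and from 938 to 607 and 1574 sites for its site shares. Rhythm calls went from 2260 to 621 and 3041 in wild-type total RNA, from 669 to 174 and 996 in nuclear RNA and from 845 to 115 and 2733 in polysomal RNA. Site share calls went from 7617 to 3034 and 7713 for nuclear, from 7196 to 3087 and 7353 for polysomal RNA, and from 38 to 4 and 94 for rhythm in share, and polysomal rhythm differences from 0 to 54.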
